A study of Rattus norvegicus with 4 samples.

Results

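The baseline described here is the transcriptome of newborn rat prefrontal cortex that received no bisphenol A (BPA), read from the vehicle-control libraries alone. Its members were the 2 libraries whose labels give the vehicle, of 4 libraries in the series, and within them the 13033 genes that carry an NCBI Gene ID and are listed in both. The study asked what prenatal BPA, a plasticizer with estrogen-like activity, does to the transcriptome of the offspring's brain. Pregnant Wistar rats (Wistar Furth in the methods) received the vehicle, absolute ethanol in corn oil, by daily gavage from gestational day 1 to birth. The tissue, labelled frontal cortex, was taken on postnatal day 1 by the labels (days 1 to 2 in the methods), 1 library from male and 1 from female pups. The methods give 3 pups per sex and treatment from separate litters and do not state whether a library pooled them, so each sex has 1 library and no replicate of its own. The methods also state that the meninges were removed before the cortex was dissected. Both libraries share the handling of the dams, the gavage and the vehicle, and no pup of an unhandled dam is among them.

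At birth the rat cortex is mostly a tissue of young neurons. Glutamatergic neurons have been produced from radial glia and their intermediate progenitors and are taking their places in the layers, interneurons have migrated in from the ganglionic eminences, astrocytes are starting to be produced, and myelination has not begun in the cortex. Synapses form mainly in the weeks after birth. Many protein families then replace a member used in the immature brain by another used in the adult, as when the GluN2A subunit of the NMDA receptor joins GluN2B. Newborn brain also burns ketone bodies beside glucose and makes its own cholesterol.

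Levels are in FPKM, the fragments of a transcript scaled to its length and to the depth of the library, a unit that is per length and so allows genes to be compared. The level of a gene is the mean of the 2 libraries, and where 2 values are given the control male comes before the control female. Ranks run from 1, the highest, to 13033. The files hold no counts, but the steps between their low values gave an estimated depth of 9253500 fragments for the male and 8947250 for the female library. The libraries served as a pair of readings of 1 state and were not contrasted. For genes at 100 FPKM or more the 2 readings differed by a median of 1.046-fold and by at most 1.13-fold in 95% of genes. Between 10 and 100 FPKM these values were 1.061 and 1.23, and between 1 and 10 FPKM they were 1.138 and 1.63. These spreads hold sex, animal, library and counting together.

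The median level of the known genes was 9.0 FPKM, with quartiles at 2.19 and 24.75 FPKM. A level of at least 1 FPKM was reached by 10740 genes (82.4%), at least 10 FPKM by 6192 (47.5%) and at least 100 FPKM by 698 (5.36%). The 10 highest genes held 7.9% of the summed FPKM, the 100 highest 24.5% and the 1000 highest 58.9%. A further 463 known genes were listed in the male and 512 in the female library alone and have no rank. The value 0.01 stands in the files where no fragment was assigned, and 50 ranked genes were at it in both libraries.

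**Figure D1:**
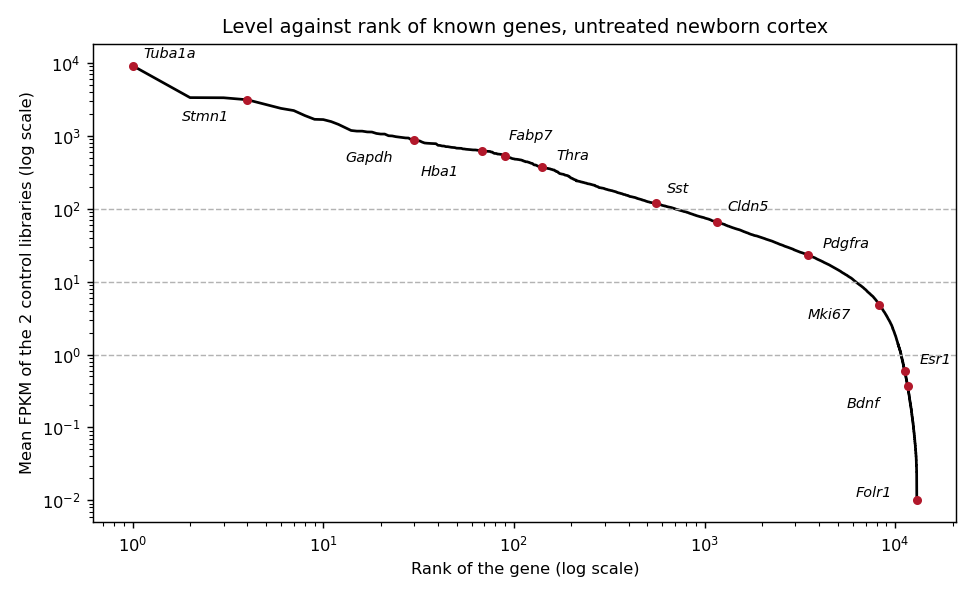
Mean FPKM of the 2 control libraries (vertical axis, log scale) against rank (horizontal axis, log scale) for 13033 known genes, with 13 genes marked in red and dashed lines at 1, 10 and 100 FPKM. The curve falls from 9111.5 FPKM for Tuba1a to 0.01 FPKM for genes such as Folr1, with the receptor Esr1 and the growth factor Bdnf below the line at 1 FPKM.

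The highest ranks belonged to the growing cytoskeleton. Tuba1a, the alpha-tubulin of young neurons, was the highest gene of all at 9243 and 8980.1 FPKM. Tubb2b, a beta-tubulin of the developing brain, was next at 3313 and 3346 FPKM. Stmn1, a stathmin that binds free tubulin and destabilizes microtubules, held rank 4 at 3235 and 2983 FPKM. The actin side of the cytoskeleton followed, with Actg1 (rank 5, 2745 and 2611 FPKM), Actb (rank 8, 1902 and 1878 FPKM), the actin-sequestering thymosins Tmsb10 (rank 6, 2489 and 2248 FPKM) and Tmsb4x (rank 7, 2304 and 2120.3 FPKM), and the actin-severing cofilin Cfl1 (rank 14, 1216 and 1142 FPKM). Tubb5 (1646 and 1681 FPKM), Tubb3, the neuronal beta-tubulin (1569 and 1552 FPKM), and Stmn2, a stathmin of growing axons (1118 and 1029.8 FPKM), were also among the 20 highest. The 12 tubulin genes together held 4.61% of the FPKM, with 7 of them among the 100 highest genes.

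The rest of the 20 highest genes were of mixed function, most of them genes of translation, protein folding or calcium signalling. These were the elongation factor Eef1a1 (rank 3, 3381 and 3246 FPKM), the prolyl isomerase Ppia (1733 and 1622 FPKM), the polyubiquitin gene Ubb (1439 and 1421 FPKM), the chaperone Hspa8 (1179 and 1133 FPKM), the growth-related Tpt1 (1156 and 1098 FPKM), calmodulin Calm2 (1167 and 1079 FPKM) and the ribosomal protein genes Rpl41, Rps29 and Rps2 (between 1048 and 1370 FPKM, the range of their single values). The 82 ribosomal protein genes held 10.3% of the FPKM, and 46 of them were among the 100 highest genes. Tubulins, actins and ribosomal proteins have near-identical copies in the genome, so the levels of single members are uncertain. Eef1a1 and Hspa8 are uncertain for a reason seen in the files, since an assembled row annotated as an Eef1a1-like protein held a further 2127 and 1943 FPKM and one annotated as Hspa8 held 1253 and 1225 FPKM.

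The promoters of Tuba1a, Tubb2b and Tubb2a are shown to let their start regions be compared, because Tuba1a is the highest gene and Tubb2b and Tubb2a are neighbouring copies of a beta-tubulin gene whose levels differed: Tubb2a held rank 22 at 980.1 and 1017 FPKM. Each runs 5′ to 3′ on the gene's strand from 250 bases before to 50 bases after the start site of RefSeq, assembly GRCr8, and capitals mark the motif TATAAA where it starts 40 to 20 bases before the start site. The regions are chr7:131995770-131996069, minus strand, for Tuba1a, chr17:30952836-30953135, plus strand, for Tubb2b and chr17:31001936-31002235, plus strand, for Tubb2a.
Tuba1a: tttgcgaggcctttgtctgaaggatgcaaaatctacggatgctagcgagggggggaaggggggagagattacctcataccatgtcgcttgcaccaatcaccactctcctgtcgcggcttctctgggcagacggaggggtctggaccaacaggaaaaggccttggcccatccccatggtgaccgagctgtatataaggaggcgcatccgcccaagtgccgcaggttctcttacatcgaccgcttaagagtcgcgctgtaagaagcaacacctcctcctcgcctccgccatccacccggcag
Tubb2b: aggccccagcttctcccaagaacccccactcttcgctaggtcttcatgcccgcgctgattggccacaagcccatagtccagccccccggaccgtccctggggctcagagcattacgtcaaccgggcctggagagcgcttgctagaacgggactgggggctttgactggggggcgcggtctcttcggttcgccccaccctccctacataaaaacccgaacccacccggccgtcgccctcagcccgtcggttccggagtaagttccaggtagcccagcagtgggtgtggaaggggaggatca
Tubb2a: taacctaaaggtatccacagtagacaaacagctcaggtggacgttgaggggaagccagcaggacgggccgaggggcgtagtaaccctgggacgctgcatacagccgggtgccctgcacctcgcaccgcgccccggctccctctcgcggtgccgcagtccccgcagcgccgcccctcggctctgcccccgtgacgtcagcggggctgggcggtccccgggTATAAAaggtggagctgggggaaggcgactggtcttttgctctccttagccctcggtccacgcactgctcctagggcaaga
Tubb2a had the motif 31 bases before its start, and the other two had no match to these 6 letters in that window, which says nothing about other forms of the element. The 300 bases held 18 CG pairs in Tuba1a, 20 in Tubb2b and 25 in Tubb2a. RefSeq promoters were found for 10561 of the 13033 genes. Their median CG number was 8 for genes under 1 FPKM, 20 between 1 and 10, 23 between 10 and 100, and 24 between 100 and 1000 FPKM, beside 7 over all 27457 promoters of the table. The TATAAA motif, searched on the gene's strand, stood in 1.52% of all 27457 promoters, in 3.43% of those of genes under 1 FPKM, in 1.01% and 0.57% of the next bands and in 3.62% of the genes between 100 and 1000 FPKM. GGGCGG, the core of the GC box, searched on both strands of the 300 bases, was found in 34.9% of all 27457 promoters, in 41.0% of those under 1 FPKM and in 71.1% of those between 100 and 1000 FPKM. The motif and CG numbers describe letters and are not evidence of binding, and GC content moved with them, with a median of 55.3% under 1 FPKM and 62.0% between 100 and 1000 FPKM.

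Lists of marker genes, chosen with earlier results of these data known, were then set against all known genes. The 53 lists held 916 different genes, of which 810 were listed in both libraries, 31 in 1 library and 75 in neither (2 of these had symbols that matched no Gene ID), and 674 had a level of at least 1 FPKM. A gene's percentile is the share of the 13033 genes below it, so 50 is the middle of all known genes. The counts of each list at 1 and 10 FPKM are to be read beside 82.4% and 47.5% of all known genes. The lists give the level of the RNA in the whole tissue, where fewer cells of a type and less RNA per cell cannot be told apart.

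The list of immature neuron genes had the highest median of all lists, 653 FPKM (percentile 99.5), and all 22 of its genes exceeded 10 FPKM, 20 of them exceeding 100 FPKM. Beside the tubulins and stathmins it held Marcksl1 and Nnat at ranks 27 and 28, the collapsin response proteins Dpysl3 and Crmp1 at ranks 36 and 41, and Gap43, the growth cone protein, at rank 80, though these were named only to show the spread after their values were seen. Dcx, the microtubule protein of migrating neurons, was at 348 and 339 FPKM. Its lowest member was Sox11, a transcription factor of young neurons, at 44.6 and 51.3 FPKM. In 3 of the 21 pairs of neighbours in the order, the ranges of the 2 libraries overlapped.

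All 11 listed genes of cortical glutamatergic identity exceeded 10 FPKM, with a median of 54.0 FPKM (percentile 89.1). Neurod6, a helix-loop-helix factor of postmitotic pyramidal neurons, led at 233 and 216 FPKM. Tbr1, a factor of corticothalamic and early-born neurons, was at 61.3 and 66.8 FPKM. The nuclear factor Nfix was at 140.4 and 121 FPKM, Nfib at 39.3 and 33.9 FPKM, Neurod2 at 45.8 and 45.4 FPKM, Bhlhe22 at 42.2 and 44.3 FPKM and Lhx2 at 21.3 and 21.1 FPKM. Of the vesicular glutamate transporters, Slc17a7 (VGLUT1) was at 51.1 and 57.0 FPKM and Slc17a6 (VGLUT2) at 12.3 and 12.4 FPKM. Emx1 and Mef2c have no row with a Gene ID here.

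The layer list had a median of 25.1 FPKM (percentile 75.4), and 13 of its 15 listed genes exceeded 10 FPKM. Lmo4, a LIM-domain cofactor, led at 179.5 and 177 FPKM, followed by Rprm, a marker of layer 6, at 97.1 and 96.3 FPKM and Crym, a thyroid hormone-binding protein, at 77.5 and 77.9 FPKM. The lowest was Foxp2, a forkhead factor of layer 6, at 6.32 and 6.45 FPKM. Subplate and Cajal-Retzius genes were lower, with a median of 1.86 FPKM (percentile 23.3). Reln, the secreted protein of Cajal-Retzius cells that guides layering, was the highest at 31.2 and 40.8 FPKM. Nxph4 was at 10.3 FPKM in both libraries, and the subplate genes Nr4a2 (6.95 and 9.13 FPKM), Ccn2 (4.54 and 4.35 FPKM) and Cplx3 (0.65 and 0.87 FPKM) lay below 10 FPKM. The Cajal-Retzius factors Trp73 (1.27 and 2.01 FPKM), Lhx1 (0.69 and 0.77 FPKM) and Lhx5 (0.41 and 0.48 FPKM) were near or below 1 FPKM. Reln is also made by interneurons.

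Interneuron genes had a median of 13.4 FPKM (percentile 59.7), with 23 of 24 at 1 FPKM or more. The peptide genes Sst (122 and 113 FPKM), Npy (102 and 93.1 FPKM) and Cck (50.1 and 57.2 FPKM) led, and Sst and Npy ranked 558 and 717. Gad1 and Gad2, which make GABA, were at 25.9 and 26.1 FPKM and at 15.2 and 15.3 FPKM. The factors Dlx1 (29.6 and 29.3 FPKM), Dlx2 (18.1 and 18.8 FPKM) and Lhx6 (14.3 and 13.1 FPKM) of the ganglionic eminence lineage were of a like level. The lowest was Nkx2-1, the factor of the medial eminence, at 0.73 and 0.60 FPKM. Pvalb, the calcium buffer of fast-spiking cells that appears late, was listed in the female library alone, at 0.44 FPKM.

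Radial glial genes spanned a wide range around a median of 12.8 FPKM (percentile 58.6). Fabp7, the brain lipid-binding protein of radial glia and young astrocytes, was at 533 and 516 FPKM (rank 90), the intermediate filament Vim at 122 and 126 FPKM and the glutamate transporter Slc1a3 at 112 and 118 FPKM. Nes, the filament nestin, was at 16.8 and 18.5 FPKM and the progenitor factor Pax6 at 6.65 and 6.52 FPKM. The Notch effector Hes5 was the lowest, at 1.09 and 3.41 FPKM. Intermediate progenitor genes had a median of 4.42 FPKM (percentile 34.8), and Eomes, their defining factor, and Neurog2 were listed in neither library. Elavl2, an RNA-binding protein also found in neurons, led at 39.6 and 38.2 FPKM, Neurod1 was at 9.69 and 10.4 FPKM, and Dll1 and Dll3 lay between 1.21 and 3.58 FPKM.

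The 24 cell cycle genes were all at 1 FPKM or more, yet only 8 reached 10 FPKM, and the median was 6.86 FPKM (percentile 43.6). Pcna, the replication clamp, was the highest at 66.8 and 66.2 FPKM, followed by the chromatin protein Hmgb2 (36.5 and 30.8 FPKM) and the cyclin Ccnd2 (31.0 and 33.6 FPKM), and the lowest was the kinetochore gene Cenpf at 1.70 and 2.15 FPKM. The ranges of the 2 libraries overlapped for 13 of 23 neighbours, so much of this order is within the spread.

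Astrocyte genes had a median of 23.3 FPKM (percentile 73.4), with 13 of 16 at 10 FPKM or more. Apoe, the lipid carrier, led at 218 and 262 FPKM, then Sparcl1, a synapse-promoting secreted protein, at 175 and 202 FPKM, and Glul, glutamine synthetase, at 143 and 156 FPKM. The defining marker Gfap was at 7.54 and 6.87 FPKM, the water channel Aqp4 at 14.6 and 16.9 FPKM and Aldh1l1 at 9.12 and 11.2 FPKM. The lowest was Kcnj10, the potassium channel Kir4.1, at 3.37 and 3.16 FPKM. Several of these genes are also expressed by radial glia.

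Oligodendrocyte precursor genes had a median of 8.66 FPKM (percentile 48.9). Olig1 (42.3 and 47.1 FPKM) and the proteoglycan Bcan (41.6 and 47.2 FPKM) led, and the receptor Pdgfra (21.7 and 24.3 FPKM), Olig2 (10.6 and 11.8 FPKM), Gpr17 (8.30 and 9.03 FPKM), Bcas1 (5.60 and 6.24 FPKM), Sox10 (4.59 and 5.35 FPKM), Cspg4 (2.58 and 3.91 FPKM) and Nkx2-2 (0.65 and 1.01 FPKM) followed. Myelin genes had a median of 4.49 FPKM (percentile 34.4), and 5 of 12 lay below 1 FPKM. Cnp (28.2 and 29.5 FPKM), Cldn11 (17.2 and 18.1 FPKM) and Mbp (14.9 and 15.6 FPKM) were at 10 FPKM or more. Mog, a glycoprotein of the outer myelin surface, was at 6.68 and 8.94 FPKM. Mag (0.54 and 1.16 FPKM), the regulator Myrf (0.77 and 0.76 FPKM) and Fa2h (0.27 and 0.05 FPKM) were among the lowest, and Opalin, a late myelin gene, was listed in neither library. Cldn11 is also a gene of the meninges, and transcripts of Mbp are also made outside myelin.

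Microglial genes had a median of 5.54 FPKM (percentile 39.0), and 1 of 16 exceeded 10 FPKM. Aif1 (9.14 and 8.03 FPKM) and the complement gene C1qa (7.5 and 9.03 FPKM) were among the higher members. The receptors Csf1r (7.13 and 7.37 FPKM), P2ry12 (2.58 and 3.13 FPKM) and Cx3cr1 (1.89 and 1.87 FPKM) were lower, and P2ry13 was the lowest at 0.80 and 0.23 FPKM. Endothelial genes were all at 1 FPKM or more, with a median of 6.65 FPKM (percentile 42.6). Cldn5, the tight junction protein of brain capillaries, led at 60.5 and 70.5 FPKM, then the amino acid transporter Slc7a5 at 44.4 and 48.2 FPKM, with Cdh5 at 11.5 and 13.2 FPKM and Pecam1 at 4.45 and 5.65 FPKM. The pericyte genes Rgs5 (26.2 and 27.8 FPKM), Vtn (9.93 and 11.7 FPKM), Pdgfrb (8.73 and 10.01 FPKM) and Kcnj8 (2.78 and 3.61 FPKM) were all at 1 FPKM or more. Of the contractile genes of smooth muscle, Acta2 was at 5.12 and 4.88 FPKM, Tagln at 4.34 and 4.28 FPKM, Myh11 at 0.62 and 0.64 FPKM and Cnn1 at 0.08 FPKM in both libraries.

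**Figure D2:**
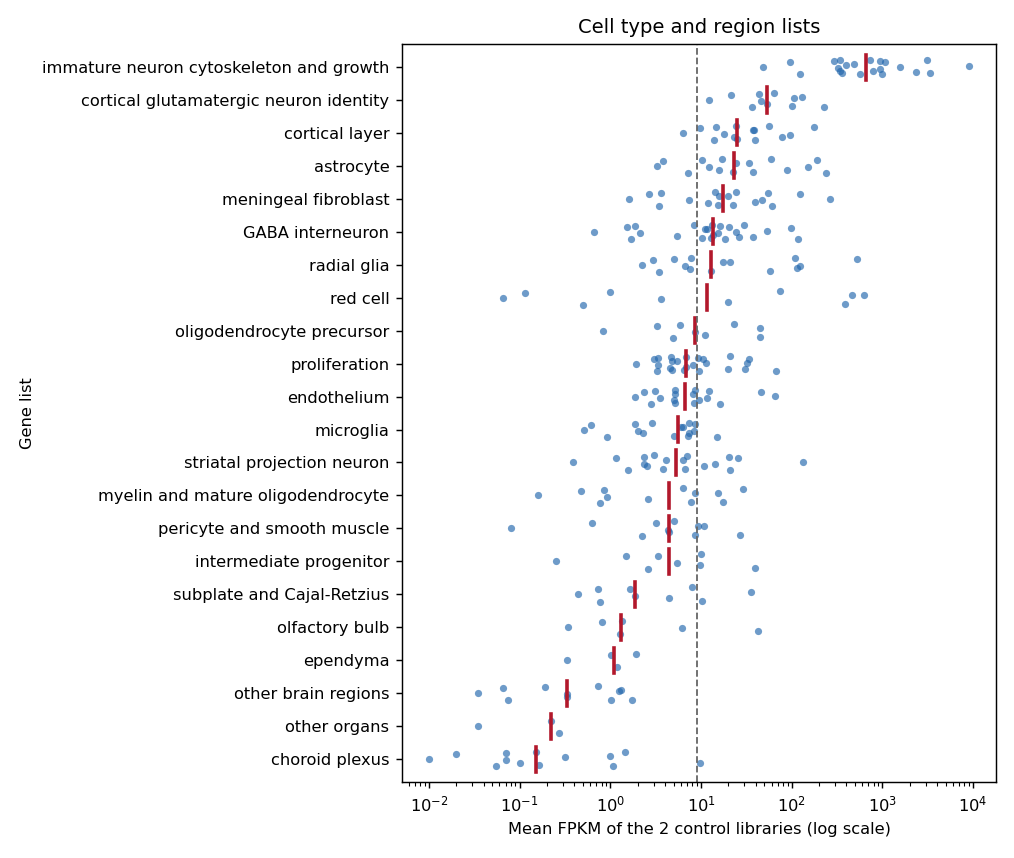
Mean FPKM of the 2 control libraries (horizontal axis, log scale) for each listed gene (blue points, spread vertically for visibility) of 22 cell type and region lists, ordered by their medians (red bars), with the median of all known genes, 9.0 FPKM, as a dashed line. The immature neuron list stands apart at the top with a median of 653 FPKM, and the choroid plexus list is at the bottom with 0.15 FPKM.

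Markers of tissues that could adhere to the sample were read in the same way. All 18 meningeal fibroblast genes were at 1 FPKM or more, 13 of them at 10 FPKM or more, with a summed level of 651 and 818 FPKM and a median at percentile 66.4. Ptgds, a prostaglandin synthase of the leptomeninges that oligodendrocytes also make, was at 214 and 320.0 FPKM, Igfbp2 at 114.5 and 129.9 FPKM and Igf2 at 61.2 and 61.1 FPKM. The defining markers Col1a1 (35.9 and 43.4 FPKM), Dcn (22.3 and 22.6 FPKM), Slc6a13 (12.5 and 18.2 FPKM) and Lum (12.3 and 11.5 FPKM) were all present, and Foxd1 was the lowest at 1.15 and 2.04 FPKM. None of the 18 was at the lowest value of the files. Their part in the levels of genes that meninges share with astrocytes or myelin was not tested.

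Red cell transcripts were abundant for the globins alone. Hba-a1 (Gene ID 25632, named Hba1 in the files) was at 638 and 608 FPKM, Hbb at 473 and 448 FPKM, Hba-a2 at 399 and 367 FPKM, Hbb-b1 at 84.6 and 65.4 FPKM and Hbbl1 at 18.0 and 21.5 FPKM. The globin copies are near-identical, so reads may be split among them. Alas2, the heme synthesis enzyme of red cell precursors, was at 3.98 and 3.34 FPKM, and Ahsp, Slc4a1, Hemgn and Epb42 lay between 0.04 and 1.12 FPKM. The list summed to 1618 and 1516 FPKM.

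Choroid plexus genes were mostly below 1 FPKM. Only 3 of 13 listed choroid plexus genes reached 1 FPKM, and the list summed to 13.7 and 14.7 FPKM, most of it from Enpp2, at 9.71 FPKM in both libraries. The defining marker Ttr was listed in the female library alone at 0.35 FPKM, Kl was at 0.01 and 0.13 FPKM, and Folr1 was at 0.01 in both. Of 4 listed ependymal genes, 3 reached 1 FPKM. These genes, Mlf1 (1.80 and 2.08 FPKM), the ciliogenesis factor Foxj1 (1.11 and 1.25 FPKM), Rsph1 (0.81 and 1.25 FPKM) and Ccdc153 (0.41 and 0.25 FPKM), summed to 4.13 and 4.83 FPKM.

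Of 18 striatal genes, 17 reached 1 FPKM and 6 reached 10 FPKM, beside 82.4% and 47.5% of all known genes, with a median at percentile 37.9 and sums of 264 and 266 FPKM. Meis2 (131.9 and 131.6 FPKM), a homeobox factor that cortical neurons also express, made up much of this, followed by Ppp1r1b, the dopamine-signalling protein DARPP-32 (24.1 and 27.2 FPKM), and Tac1 (22.1 and 19.8 FPKM). The defining markers Adora2a (6.52 and 6.29 FPKM), Drd2 (4.25 and 3.96 FPKM) and Drd1 (2.70 and 3.42 FPKM) were lower. The olfactory bulb list summed to 51.3 and 54.2 FPKM, most of it from Cdhr1 (41.1 and 44.5 FPKM), while Sp8 was at 5.88 and 6.51 FPKM, Tbx21 at 1.74 and 0.85 FPKM, Th at 0.89 and 0.72 FPKM and Doc2g at 0.38 and 0.31 FPKM. Of 25 genes of other brain regions, 14 were not listed in both libraries, and the highest, the thalamic Tcf7l2, reached 1.48 and 1.98 FPKM. The hindbrain and spinal cord genes Hoxa5, Hoxb3, Hoxb5 and En1 were listed in neither library, and Hoxc4 in the male library alone at 0.05 FPKM. Of 11 genes of other organs, none reached 1 FPKM, and the skeletal muscle gene Myh3 was the highest at 0.31 and 0.24 FPKM. A gene without a row may still have RNA in rows that carry no Gene ID, and none of the lists can tell prefrontal from other cortex.

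Maturation was read from synaptic, axonal and growth lists and from gene pairs. Presynaptic genes had a median of 68.8 FPKM (percentile 91.6), with 18 of 20 at 10 FPKM or more. Among the highest were the vesicle SNARE Vamp2 at 194 and 196 FPKM and the vesicle GTPase Rab3a at 170.3 and 157 FPKM. The lowest was Syt2, the calcium sensor of fast adult synapses, at 0.70 and 0.51 FPKM. Postsynaptic genes had a median of 30.9 FPKM (percentile 79.8), with 19 of 20 at 10 FPKM or more. The kinase subunit Camk2b (135 and 139 FPKM), the scaffold PSD-95, Dlg4 (119 and 122 FPKM), and Dlg2 (74.2 and 71.8 FPKM) led, and Dlgap2 was the lowest at 3.02 and 3.08 FPKM. RNA for most parts of the synapse was therefore present at birth at levels above the middle of all genes.

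Genes of axon maturation and the perineuronal net were spread further, with a median of 12 FPKM (percentile 56.8) and 3 of 21 below 1 FPKM. The intermediate filament genes Ina (85.0 and 80.7 FPKM) and Nefm (42.5 and 44.3 FPKM) and the axon initial segment organizer Ank3 (34.1 and 38.2 FPKM) led. Hapln4, a link protein of the perineuronal net, was the lowest at 0.15 and 0.12 FPKM. Immediate early genes, which follow neuronal activity and handling, had a median of 2.60 FPKM (percentile 26.9), from Jun (14.1 and 14.8 FPKM), Dusp1 (9.32 and 9.53 FPKM) and Egr1 (7.08 and 8.84 FPKM) down to Fosb (0.03 and 0.42 FPKM). Among genes of fetal growth, Hmga1, a chromatin protein, was at 40.4 and 39.7 FPKM and the noncoding RNA Meg3 at 17.4 and 27.7 FPKM. Plagl1 (7.63 and 8.38 FPKM), Igf2bp2 (5.45 and 4.83 FPKM), H19 (4.22 and 4.75 FPKM) and Dlk1 (2.39 and 3.33 FPKM) were intermediate. Igf2bp1 (1.11 and 0.71 FPKM) and Hmga2 (0.44 and 0.30 FPKM) were near or below 1 FPKM, and Lin28a and Lin28b, the RNA-binding proteins of the embryo, were listed in neither library.

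In 24 pairs, the member named first was taken as the earlier and the other as the later to rise. These pairs were chosen with earlier results of these data known, so their tally is not a test of maturation. Most are related genes, while Dcx with Rbfox3, Pdgfra with Mog and Sst with Pvalb mark different cells or stages, and the pairs of Ina and Nefm share their later member, so that the pairs are not independent and their tally is a description. Vamp2 is also the main vesicle SNARE of the adult forebrain. Both members were listed in 23 pairs, and the early member was at least 2 times higher in 17 of them, in each of the 2 libraries. Log2 ratios have 0.5 FPKM added to both members, while differences given as a fold are plain ratios of the mean FPKM. The late member was at least 2 times higher in 3 pairs, and 3 pairs differed by less than 2 times. The widest gap was between the lecticans Ncan (113 and 115 FPKM) and Acan, the aggrecan of adult perineuronal nets (0.52 and 0.73 FPKM), at a log2 ratio of 6.79 and 6.55. The synaptotagmins Syt11 (81.0 and 79.8 FPKM) and Syt2 differed by 6.09 and 6.31, and the synaptobrevins Vamp2 and Vamp1 (3.88 and 2.81 FPKM) by 5.47 and 5.89. Intervals for counting error alone were within 0.82 of each log2 ratio, the widest being that of Syt11 over Syt2 in the female library.

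In the cytoskeletal pairs the earlier member was ahead throughout. Ina exceeded the heavy neurofilament Nefh (1.09 and 1.39 FPKM) by a log2 ratio of 5.58 of the means, and Nefm exceeded it by 4.66. Tubb2b exceeded Tubb4a (168 and 161 FPKM), the tubulin of the adult brain, by 4.34. Map1b (378 and 416 FPKM) exceeded Map1a (28.3 and 30.6 FPKM) by 3.73. The ratio of Dcx to the mature neuron marker Rbfox3, which encodes NeuN (38.8 and 37.0 FPKM), was 3.16. In glia, Vim exceeded Gfap by 4.01 and Pdgfra exceeded Mog by 1.5. The lamin pair Lmnb1 (50.5 and 49.3 FPKM) and Lmna (7.8 and 9.0 FPKM) differed by 2.50, as did the polysialyltransferases St8sia2 (72.2 and 73.0 FPKM) and St8sia4 (12.5 and 12.3 FPKM).

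Among channels and receptors, Grin2b (19.7 and 22.6 FPKM) exceeded Grin2a (0.93 and 1.23 FPKM) by a log2 ratio of 3.78, a 19.6-fold difference of the mean FPKM. The sodium channel Scn3a (19.2 FPKM in both) exceeded Scn1a (5.90 and 5.89 FPKM) by 1.63, and Scn2a (31.2 and 32.4 FPKM) exceeded Scn8a (12.1 and 13.7 FPKM) by 1.27. Camk2b exceeded Camk2a (36.1 and 42.4 FPKM), the subunit of adult excitatory synapses, by 1.79. Among the pairs that differed by less than 2 times were Cplx2 (61.8 and 60.3 FPKM) against Cplx1 (65.8 and 64.8 FPKM) at -0.10, and Kcnc4 (4.0 and 4.96 FPKM) against Kcnc1 (5.03 and 6.04 FPKM) at -0.28.

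The late member was ahead in 5 pairs, and by at least 2 times in 3 of them. Slc12a5, the chloride exporter KCC2 that makes GABA inhibitory (16.4 and 18.1 FPKM), exceeded the importer NKCC1, Slc12a2 (6.97 and 8.42 FPKM), by 2.24-fold. Dlg4 exceeded the early scaffold SAP102, Dlg3 (25.8 and 26.3 FPKM), by 4.63-fold. Slc17a7 exceeded Slc17a6 by 4.37-fold. For the chloride transporters, the counting interval of the log2 ratio, -1.06 ± 0.16 in the female library and -1.18 ± 0.17 in the male, reached across the 2-fold line in the female library.

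**Figure D3:**
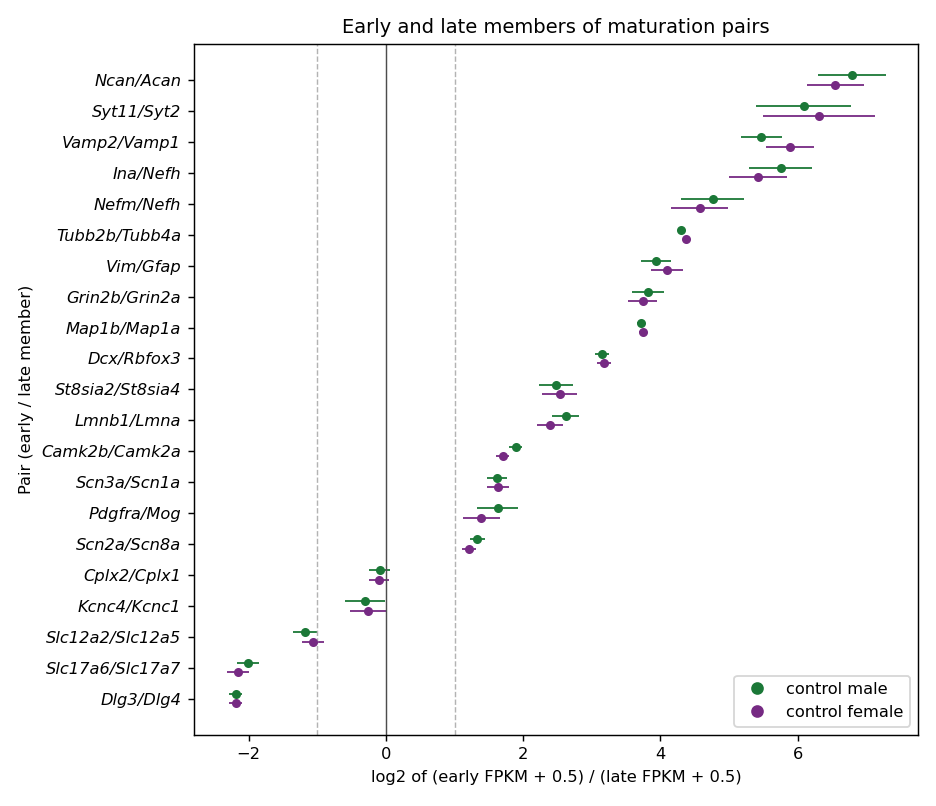
Log2 ratio of the early over the late member, with 0.5 FPKM added to each (horizontal axis), in the control male (green) and control female (purple) library for 21 of the 23 pairs (vertical axis), with bars for the 95% interval of counting error alone and dashed lines at a 2-fold difference. In 16 pairs both points lie to the right of the right dashed line, and Slc12a2/Slc12a5, Slc17a6/Slc17a7 and Dlg3/Dlg4 have both points to the left of the left one.

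Receptor genes were lower than the synaptic genes as a whole, and their lists differed. Of 18 ionotropic glutamate receptor genes, 17 reached 1 FPKM and 11 reached 10 FPKM, with a median of 16.9 FPKM (percentile 64.5). The AMPA receptor subunit Gria1 (65.1 and 68.0 FPKM), the kainate subunit Grik5 (46.7 and 49.0 FPKM) and Gria2 (41.8 and 43.4 FPKM) led, and Grin2c, an NMDA receptor subunit best known from cerebellum, was the lowest at 0.28 and 0.49 FPKM. Among the metabotropic receptors, Grm3 (40.7 and 41.3 FPKM) and Grm5 (37.8 and 40.6 FPKM) stood well above Grm7 (8.99 and 8.50 FPKM). Grm4, Grm8, Grm2 and Grm6 lay between 1.23 and 3.71 FPKM. The GABA and glycine receptor list had a median of 10.7 FPKM (percentile 53.9). Gabbr1, a subunit of the GABA-B receptor, led at 155 and 158 FPKM. Gabrr2, a rho subunit of the retina, was the lowest at 0.06 and 0.01 FPKM.

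Receptors for modulators were mostly scarce. Of 28 listed monoamine and histamine receptor genes, 15 reached 1 FPKM and none reached 10 FPKM, with a median of 1.06 FPKM (percentile 18.1). The adrenergic Adra2a (5.22 and 6.50 FPKM), the serotonin receptor Htr2a (3.81 and 4.68 FPKM) and the dopamine receptor Drd2 led, and Drd3 was the lowest at 0.01 and 0.08 FPKM. The ranges overlapped for 21 of 27 neighbours in this list. Acetylcholine receptor genes had a median of 1.92 FPKM (percentile 23.6), with the nicotinic Chrnb2 (20.9 and 19.3 FPKM), Chrna4 (8.23 and 9.26 FPKM) and Chrna7 (5.90 and 5.40 FPKM) ahead and the muscle subunit Chrna1 at 0.01 in both. Of 35 peptide and cannabinoid receptor genes, 20 lay below 1 FPKM and the median was 0.97 FPKM. The cannabinoid receptor Cnr1 (58.5 and 63.9 FPKM), the PACAP receptor Adcyap1r1 (42.2 and 45.1 FPKM) and the somatostatin receptor Sstr1 (29.2 and 29.6 FPKM) stood out from that list, whose lowest was the vasopressin receptor Avpr1b (0.04 and 0.01 FPKM). A low value here marks scarce RNA in the tissue and does not show absence from a rare cell type.

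Growth factor receptors had a median of 4.54 FPKM (percentile 35.5). Ntrk2, the receptor of BDNF (67.0 and 71.2 FPKM), led by far, then Cntfr (19.2 and 18.6 FPKM) and Kit (17.4 and 18.6 FPKM). The neurotrophin ligands were low: Ntf3 was at 6.52 and 4.91 FPKM and Bdnf at 0.50 and 0.23 FPKM, on an estimated 18 and 8 fragments. Ntrk2 held rank 1086 and Ntf3 rank 7867.

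Nuclear receptors matter here because BPA is discussed as a ligand of several of them. Of 48 genes, 35 were listed in both libraries, with a median of 5.83 FPKM (percentile 40). Of these 35, 28 reached 1 FPKM and 8 reached 10 FPKM, beside 82.4% and 47.5% of all known genes. Thra, a receptor of thyroid hormone, stood alone at 364 and 373 FPKM (rank 141). Thra and Nr1d1 (21.4 and 22.1 FPKM) overlap on opposite strands and whether the reads keep their strand is not given in the sources used here, so both levels are uncertain. The next were Nr2c2 (29.9 and 27.8 FPKM), the retinoid partner Rxrb (22.1 and 19.96 FPKM), the oxysterol receptor Nr1h2 (18.9 and 16.7 FPKM), the COUP factors Nr2f1 (16.8 and 17.7 FPKM) and Nr2f2 (11.7 and 10.4 FPKM), and the retinoic acid receptor Rara (9.77 and 10.8 FPKM). Pparg and Nr5a2, at 0.12 and 0.06 FPKM each, were the lowest. The sex steroid receptors were scarce. Esr1, estrogen receptor alpha, was at 0.64 and 0.55 FPKM (rank 11230), on an estimated 12 and 10 fragments. Exact Poisson 95% intervals, which cover counting error only, ran from 0.331 to 1.12 FPKM in the male and from 0.264 to 1.01 FPKM in the female library. Esr2 was listed in the female library alone at 0.01, the value that stands for no fragment.

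Several other genes that the study examined as transcription factors or targets were also read. Tcf4, a helix-loop-helix factor of neurons, was at 35.6 and 36.5 FPKM, the zinc finger factor Yy1 at 21.1 and 23.2 FPKM, Sox5, a factor of deep-layer neurons, at 14.5 and 13.6 FPKM, and the axon guidance gene Ntng1 at 2.42 and 2.18 FPKM. The neural factor Pou3f2 was at 18.3 and 17.6 FPKM, Pax6, a factor of radial glia, at 6.65 and 6.52 FPKM, and Egr2, an immediate early gene, far lower at 0.37 and 0.15 FPKM. Rora, Auts2, Ankrd11, Dock4 and Syne1 have no row with a Gene ID in these libraries.

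**Figure D4:**
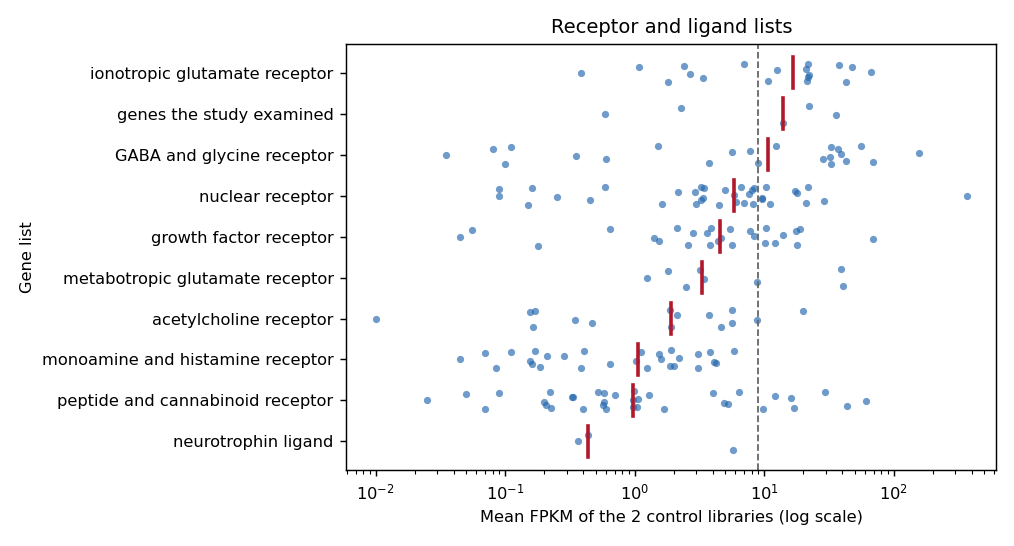
Mean FPKM of the 2 control libraries (horizontal axis, log scale) for each listed gene (blue points, spread vertically for visibility) of the receptor, ligand and study gene lists (vertical axis), with list medians (red bars) and the median of all known genes, 9.0 FPKM (dashed line). The nuclear receptor list has 1 point far to the right, Thra, at 368 FPKM, and the medians of the monoamine, peptide and neurotrophin lists lie near or below 1 FPKM.

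Thyroid hormone handling could be followed from entry to response. The transporter Slco1c1 (28.9 and 33.4 FPKM) was well above Slc16a10 (0.09 and 0.14 FPKM). Dio2, which activates the hormone, was at 2.55 and 2.69 FPKM and Dio3, which inactivates it, at 0.48 and 0.19 FPKM, a 7.82-fold difference of the means that rests on an estimated 8 and 3 fragments of Dio3. Thrb was at 3.01 and 2.85 FPKM, and the response genes Hr and Klf9 were at 4.32 and 4.11 FPKM and at 3.01 and 4.41 FPKM.

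Energy metabolism was read from glucose to ATP. Glycolysis genes had a median of 76.4 FPKM (percentile 92.5), with 16 of 23 at 10 FPKM or more. Gapdh was at 878 and 866 FPKM (rank 30), Eno1 at 350 and 351 FPKM and Aldoa at 217 and 207 FPKM. Isoforms were far apart in some steps. Hk1 (97.2 and 98.1 FPKM) exceeded Hk2 (1.67 and 1.25 FPKM) 66.9-fold, Eno1 exceeded the neuronal Eno2 (74.7 and 73.4 FPKM) 4.73-fold, Aldoa exceeded Aldoc (85.7 and 89.8 FPKM) 2.42-fold, and Pfkm (67.6 and 68.3 FPKM) exceeded Pfkp (19.96 and 22.3 FPKM) 3.21-fold. Ldha (185 and 173 FPKM) and Ldhb (129.2 and 129.4 FPKM), the lactate dehydrogenase subunits, differed by less than 2 times, at 1.39-fold.

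Of the carriers, Bsg, the chaperone of lactate transporters (190.1 and 208 FPKM), and the mitochondrial pyruvate carriers Mpc1 (72.2 and 69.7 FPKM) and Mpc2 (71.5 and 65.9 FPKM) were the highest. The glucose transporters Slc2a1 (14.9 and 17.2 FPKM) and Slc2a3 (14.2 and 15.5 FPKM) had overlapping ranges. The monocarboxylate transporters Slc16a1 (15.9 and 19.7 FPKM) and Slc16a7 (10.9 and 11.2 FPKM) differed by 1.61-fold. In the pentose phosphate pathway, Taldo1 (156 and 149 FPKM) and Tkt (123 and 126 FPKM) stood above Pgd (33.1 and 30.6 FPKM), an enzyme that makes NADPH.

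Mitochondrial genes were high. All 27 genes of pyruvate dehydrogenase and the citric acid cycle reached 1 FPKM and 26 reached 10 FPKM, with a median of 46.4 FPKM (percentile 87.1), led by Mdh1 (158 and 154 FPKM), Mdh2 (158 and 148 FPKM) and Cs (143 and 154 FPKM). The exception was Pdk4, the kinase that blocks pyruvate dehydrogenase in fasting, at 1.18 and 1.22 FPKM. Oxidative phosphorylation had the highest median of the metabolic lists, 117 FPKM (percentile 95.7), with 40 of 42 genes at 10 FPKM or more. Atp5f1b (685 and 657 FPKM) and Atp5f1a (397 and 381 FPKM) of the ATP synthase and Cox6a1 (352 and 343 FPKM) led. The genes below 10 FPKM were Cox4i2 (1.95 and 3.57 FPKM), against 333 and 325 FPKM for Cox4i1, and Cox6a2 (1.00 and 0.01 FPKM), the form of heart and muscle. The uncoupling carriers Slc25a14 (11.2 and 11.8 FPKM), Ucp2 (9.98 and 10.5 FPKM) and Slc25a27 (7.51 and 7.46 FPKM) were near the middle of all genes, and Ucp1, the protein of brown fat, was listed in neither library.

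For ketone bodies, the fuel that milk brings, Oxct1, which activates acetoacetate, was at 77.3 and 77.8 FPKM (rank 946), Acat1 at 68.8 and 68.0 FPKM and Bdh1 at 26.9 and 26.3 FPKM. Aacs, which feeds acetoacetate to lipid synthesis, was at 34.2 and 36.6 FPKM. Fatty acid oxidation had a median of 11.9 FPKM (percentile 56.4), led by Hadha (32.8 and 36.9 FPKM), Hadhb (35.7 and 32.5 FPKM) and Echs1 (30.7 and 29.5 FPKM). The brain form Cpt1c (8.46 and 8.62 FPKM) and Cpt1a (7.48 and 7.60 FPKM) were within 2 times of each other, and the muscle form Cpt1b was the lowest at 0.86 and 1.13 FPKM.

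Cholesterol synthesis was among the strongest biosynthetic lists, with all 24 genes at 1 FPKM or more, 22 at 10 FPKM or more and a median of 37.8 FPKM (percentile 83.7). Hmgcs1 (362 and 352 FPKM), Fdps (234 and 229 FPKM) and Acat2 (150.03 and 149 FPKM), enzymes of the early part of the pathway, led, and Ebp was the lowest at 4.71 and 5.99 FPKM. Fatty acid synthesis had a median of 35.0 FPKM (percentile 82.3), led by the desaturase Scd2 (291 and 304 FPKM), Fasn (128 and 147 FPKM) and Acly (96.4 and 97.9 FPKM), down to Elovl7 (0.84 and 0.79 FPKM). Steroid synthesis was low, with a median of 1.79 FPKM (percentile 22.9). Hsd17b10 (27.6 and 31.8 FPKM), Hsd17b4 (27.4 and 27.2 FPKM) and Fdx1 (7.64 and 7.75 FPKM), which have other tasks in mitochondria and peroxisomes, led. Cyp19a1, the aromatase that makes estradiol, was at 0.12 FPKM in both libraries (rank 12369), on an estimated 3 fragments in each, with an interval from 0.0247 to 0.351 FPKM. Srd5a2 was the lowest at 0.12 and 0.01 FPKM, and Hsd3b1 was listed in neither library.

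In glutamate and GABA metabolism, 10 of 11 genes reached 10 FPKM, beside 47.5% of all known genes, with a median at percentile 87.9. Glul was followed by glutamate dehydrogenase Glud1 (100.4 and 105 FPKM), the aminotransferase Got2 (86.0 and 82.2 FPKM) and the glutamine transporters Slc38a2 (57.4 and 57.9 FPKM) and Slc38a1 (54.8 and 53.2 FPKM). Abat, which breaks GABA down, was at 12.4 and 14.96 FPKM. The creatine kinase Ckb (317 and 319 FPKM, rank 170) exceeded its mitochondrial form Ckmt1 (20.1 and 18.1 FPKM) 16.6-fold, and Gatm (42.1 and 45.6 FPKM) and Gamt (9.35 and 10.2 FPKM), which make creatine, and its carrier Slc6a8 (13.2 and 12.9 FPKM) were listed too. Serine and one-carbon metabolism had a median of 13.9 FPKM (percentile 60), led by Mat2a (48.9 and 54.4 FPKM), Srr, the racemase that makes D-serine (35.1 and 31.4 FPKM), and Ahcy (29.2 and 26.1 FPKM).

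Enzymes that handle foreign compounds were uneven, with a median of 5.33 FPKM (percentile 38.3) and 13 of 37 not listed in both libraries. The glutathione transferases Gstp1 (97.7 and 85.2 FPKM) and Gstm1 (77.6 and 75.02 FPKM) and the brain sulfotransferase Sult4a1 (70.4 and 69.2 FPKM) led. Cyp1a1 was at 0.04 FPKM in both libraries, and the liver enzymes Cyp2e1 and Cyp3a2 were listed in neither. Of the glucuronosyl transferases, Ugt1a6, which conjugates phenols, was at 0.75 and 0.89 FPKM and Ugt1a7c at 0.35 and 0.37 FPKM, both named after their values were seen, while Ugt1a1 and Ugt2b1 were listed in the female library alone, at 0.01 and 0.06 FPKM.

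**Figure D5:**
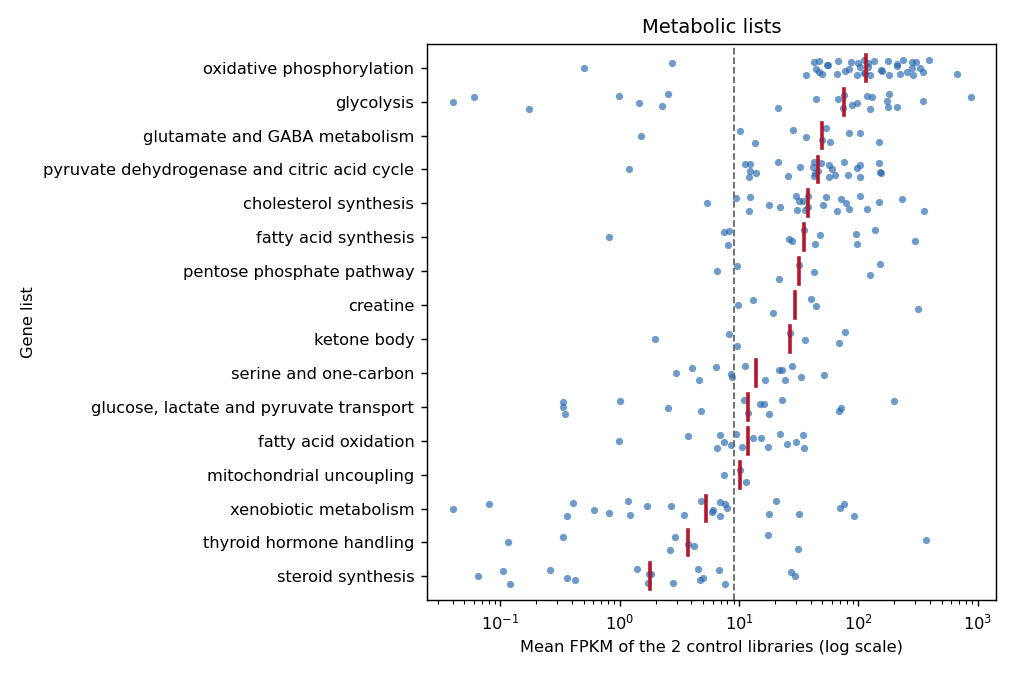
Mean FPKM of the 2 control libraries (horizontal axis, log scale) for each listed gene (blue points, spread vertically for visibility) of the metabolic lists (vertical axis), with list medians (red bars) and the median of all known genes, 9.0 FPKM (dashed line). Oxidative phosphorylation has the rightmost median at 117 FPKM and steroid synthesis the leftmost at 1.79 FPKM.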

How the data were processed

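RNA was selected with oligo(dT), treated with DNase I and sequenced on an Illumina HiSeq. The authors aligned the reads with Bowtie 2 to the assembly Rnor_6.0, and RSEM gave the expression values. The submitters' processing notes also name HISAT and rn6, and versions are not given in the sources used here. Per the file headers the deposited unit is FPKM, made by the authors per transcript length and library size, with 2 decimals and 0.01 as the lowest value. The male table held 16782 rows (13496 with a Gene ID) and the female 16819 (13545), and the rest were transcripts assembled by the provider, with 7.91% of the FPKM in each library. These totals equal the numbers of transcripts that the paper gives as detectable in male and in female pups. Of these rows, 654 and 629 were at 0.01, so a listed row need not have a fragment in that control library. Whether the BPA libraries shaped which rows are listed was not tested.

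The files hold no counts. Depth was estimated as the fragment number that brings FPKM times effective length (length minus 60 bases) closest to whole numbers over 742 and 819 scarce rows, where 82.5% and 81.0% came within 0.1 of a whole number (20% by chance). The recovery was tested on simulated whole counts with the same 60 bases taken off, so it could not check that length or the effect of fractional counts. Depth limits low values: 3 fragments make 0.12 FPKM for Cyp19a1.

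The 2 control libraries were averaged, and known genes in both were ranked. No comparison was tested, since the libraries were not contrasted and the values of the BPA libraries were not used here. Gene IDs matched the RefSeq table of GRCr8 for 12965 of 13033 genes, and members are named by their current RefSeq symbol. Text names the 20 highest genes, in each list the 3 highest and the lowest (all members for lists of 12 or fewer found), all pair members, some genes the study examined, nuclear receptors at 10 FPKM or more, markers used for the tissue check, and members not listed. Some genes that this rule would name are not reported here. The members, lists and pairs were chosen with earlier results of these data known. Alternatives were each library alone, the geometric mean, TPM, added assembled transcripts, other thresholds, pseudocounts of 0.1 and 1 in place of 0.5, and other effective lengths. Python 3.11.15 with pandas 2.3.3, numpy 2.4.6, scipy 1.17.1 and matplotlib 3.10.9 was used.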

Additional observations from a re-analysis of the deposited data

Results flagged for a closer look

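A set of 10 genes of the lists has no row with a Gene ID but is named in the protein annotation of assembled transcripts, which the ranking left out. The search was by protein name, chosen after the files had been read, and each value is the summed FPKM of the rows, averaged over both control libraries. The neuronal factor Mef2c was at 56.1 FPKM (1 row), Lmo3, a LIM-domain protein of the layer list, at 77.2 FPKM (2 rows), and the dorsal forebrain factor Emx1 at 2.79 FPKM (1 row). Cux1 summed to 78.3 FPKM over 8 rows, but the rows over 10000 bases, the size of a full-length homeobox transcript, held only 4.38 and 5.07 FPKM and rows under 2000 bases held 70.9 and 76.3 FPKM. The interneuron factor Dlx6 was at 4.38 FPKM (1 row) and the progenitor factor Insm1 at 7.26 FPKM (2 rows). Among the genes the study examined, Auts2 was at 13.01 FPKM (6 rows), Ankrd11 at 18.1 FPKM (3 rows), Dock4 at 6.92 FPKM (2 rows) and Syne1 at 12.7 FPKM (6 rows). A sum over rows of different length is not a level of the whole gene, so these values were given no rank.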

How the results depend on the processing

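The number of different list genes at 1 FPKM or more was 674 and became 672 with the geometric mean, 676 with assembled transcripts added, 720 as TPM (a rescaling by 2.30 and 2.35), 714 and 616 at thresholds of 0.5 and 2 FPKM and 699 for genes with at least 10 fragments in both libraries. It was between 669 and 679 with 1 library left out. The number at 10 FPKM or more was 407, with 401 to 417 in single libraries and 535 as TPM. Of 53 lists, 27 had a median above the middle of all genes, 27 in each library alone, 26 with assembled transcripts and 25 among genes at 1 FPKM or more. The early member was at least 2 times higher in 17 maturation pairs, 17 in each library alone and with either pseudocount, and 15 where both members had to reach 1 FPKM. List by list, 11 of 424 recomputed counts at 1 FPKM and 24 of 265 at 10 FPKM moved by over 1.5 times, 21 of the latter as TPM. Of 317 recomputed median percentiles, 80 moved by over 1 SD of the 2 libraries, 50 of them among genes at 1 FPKM or more, where every percentile is counted over fewer genes, and 10 and 11 of 53 with the female or the male library alone. The microglial median moved most with a single library, from percentile 39.0 to 32.7 in the male and 43.4 in the female. The short list of genes taken from those the study examined moved from 60.8 to 43.6 with assembled transcripts added. Estimated depth depended on the effective length: with 0, 100 and 150 bases taken off it was 8607000, 9784750 and 10526500 fragments for the male library and 8354250, 9460500 and 10040000 for the female. Of these lengths, 60 bases gave the highest share of whole numbers. No paired analysis was possible because nothing was compared between groups and the replicate numbers follow accession order. Depth limits genes under about 0.5 FPKM, and 1 library per sex leaves the spread between animals of a sex unknown.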
